A study of Homo sapiens with 3 samples.

Results

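The matrix metalloproteases (MMPs), the ADAM and ADAMTS proteases and their inhibitors and partners were examined in T24 cells, an established human bladder carcinoma line, after ionising irradiation with and without an shRNA against HDAC6. The group was a list of 39 genes taken by symbol from the 58381 genes of the count table: 15 MMPs, 7 ADAMs, 11 ADAMTS genes, the 4 tissue inhibitors of metalloproteases (TIMPs), RECK and BSG. The list was drawn up by gene family, with earlier results of these data known. It leaves out 29 further MMP, ADAM and ADAMTS genes, some of which, such as ADAM2 and ADAM7, had 0 counts in every library. RNA-seq was available from 3 conditions with 1 library each: Ctrl (treatment label Empty), RT (irradiated) and RT + shHDAC6 (irradiated, with HDAC6 knockdown). The labels give 10 Gy for irradiation and no time between irradiation and harvest. They describe lentiviral delivery of the shRNA and of an empty control vector followed by puromycin selection, and they do not say whether the Ctrl and RT libraries carried that vector. Cells with the shRNA and without irradiation were not analysed here. RT + shHDAC6 could thus be compared to RT for the shRNA and to Ctrl for both treatments together. Any difference in vector or puromycin selection would enter both comparisons and cannot be told apart from the shRNA.

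MMPs are secreted or membrane-anchored zinc proteases that are made as inactive zymogens and cut collagens, laminins, other matrix proteins and cell-surface molecules. ADAMs are membrane proteases that shed the extracellular parts of growth factors, receptors and adhesion molecules, whereas the secreted ADAMTS proteases cut proteoglycans, procollagens and von Willebrand factor. TIMPs bind the active site of these enzymes, RECK is a membrane-anchored inhibitor of several MMPs, and BSG (basigin, also called EMMPRIN) is a surface glycoprotein known for inducing MMPs and for chaperoning lactate transporters. In bladder cancer, these genes are studied for their part in invasion through the basement membrane and muscle.

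Sequencing gave 41811165 counts for Ctrl, 35959265 for RT and 35424086 for RT + shHDAC6, of which the 39 genes took 0.210%, 0.287% and 0.273%. Ratios between libraries were taken after trimmed mean of M-values (TMM) scaling and are given as log2 ratios with the exact 95% interval for counting error. No molecular identifiers are described for these reads, and an interval or a floor therefore covers counting error only. A gene was called higher or lower at a difference of at least 1.5-fold with an interval that excluded 0, provided that the higher library of the pair held at least 10 counts. With 1 library per condition, no difference could be checked against replicates, and p-values are not reported. HDAC6, the target of the shRNA, had 3098 counts in Ctrl, 2383 in RT and 2170 with RT + shHDAC6. RT + shHDAC6 thus kept 87.2% of the RT level (log2 ratio -0.20, interval -0.28 to -0.11), which is short of a call.

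The libraries also held transcripts of other cell types. The labels name a cell line but describe RNA extraction from frozen material. PECAM1 and VWF, endothelial markers, had 489 and 417 counts in Ctrl, 209 and 209 in RT, and 323 and 271 in RT + shHDAC6. None of the 4 endothelial, 5 leukocyte and 5 fibroblast markers was at 0 in any library. Plasma cell transcripts, which were looked up after the values had been seen, included IGHG1 at 1803, 821 and 1132 counts. The summed level of the 4 endothelial markers was 25.1 in Ctrl, 15.8 in RT and 21.1 with RT + shHDAC6, in CPM, the count relative to the scaled library size. The 5 leukocyte markers summed to 7.65, 5.34 and 4.80 CPM, the 5 fibroblast markers to 391, 293 and 273 CPM and the 3 plasma cell genes to 68.8, 40.7 and 54.3 CPM. Over the 8 endothelial, leukocyte and plasma cell markers with at least 100 counts, the log2 ratio of RT to Ctrl ranged from -1.02 to -0.43 and that of RT + shHDAC6 to RT from -0.27 to 0.74. For 8 of the 39 genes (MMP1, MMP7, MMP9, MMP13, MMP14, MMP28, ADAMTS15 and TIMP4) both ratios lay inside these ranges, and for 15 both counting intervals reached them. Of the 8, 4 had at least 100 counts in a library. The 15 include MMP10, MMP28 and ADAMTS17, with 2 to 6 counts in each library and wide intervals. For the other 24 genes the intervals did not both reach the ranges. The share of all tested genes in these ranges was not taken, so these numbers cannot be read against a background. With the 5 fibroblast markers included, which was added after the data had been seen, the ranges widened to -1.02 to -0.22 and -0.72 to 0.74. COL3A1 alone set both new edges. COL1A1, COL1A2, DCN and LUM were at -0.78 to -0.54 in RT against Ctrl and at 0.23 to 0.45 in RT + shHDAC6 against RT. Both intervals reached the wider ranges for 21 genes, MMP2, MMP3, MMP19, ADAMTS5, ADAMTS7 and TIMP3 being the 6 that were added. Of the 8 urothelial markers, UPK1B, UPK2, UPK3A and KRT20 had 0 to 3 counts in every library and UPK1A 18, 2 and 2, whereas GATA3 had 2320, 1423 and 709 counts, PPARG 1298, 650 and 352, and KRT5 478, 257 and 345. Of the 6 epithelial markers, KRT18 had 7336 to 9048 counts and was called higher in RT than in Ctrl (log2 ratio 0.62). KRT19 (950, 441 and 602 counts) was called lower (-0.67). KRT7 (0.56), KRT8 (-0.49), CDH1 (-0.55) and EPCAM (-0.39) were not called. Of the 4 mesenchymal markers, CDH2 was called higher (0.78), and VIM (121716, 74147 and 95822 counts, -0.28), FN1 (-0.22) and ZEB1 (-0.39) were not called. In bulk RNA, fewer cells of a type and less RNA per cell cannot be told apart.

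Across the group, 36 of the 39 genes passed the count minimum in each comparison. MMP10, MMP28 and ADAMTS17 did not, with 2 to 6 counts in each library. None was at 0, and 25 reached 100 counts in at least 1 library. Compared to Ctrl, RT had 8 of the 36 higher (22.2%) and 5 lower (13.9%), beside 12.2% higher and 13.0% lower among the 20267 genes tested. Compared to RT, RT + shHDAC6 had 4 higher (11.1%) and 8 lower (22.2%), beside 5.09% and 6.58% of the 19013 genes tested. Compared to Ctrl, RT + shHDAC6 had 6 higher (16.7%) and 8 lower (22.2%), beside 11.3% and 13.8% of 20374 genes. The median log2 ratio of the 36 genes was 0.059 in the first of these comparisons, -0.15 in the second and -0.049 in the third. Over all tested genes it was -0.062, -0.0032 and -0.056. The median of RT against Ctrl was near 0 and its sign depended on the scaling, at -0.16 for library totals. The median size of the log2 ratio, without its sign, was 0.54 in the first comparison and 0.48 in the second, against 0.42 and 0.23 over all tested genes. RT enters both of these comparisons, so counting error in the RT library moves their ratios in opposite directions. Taken over the 3 comparisons together, called genes ran both ways in the MMPs, ADAMs, ADAMTS genes and TIMPs, and 18 genes were called in no comparison. In RT + shHDAC6 against RT, the called MMPs (MMP16 and MMP17) and TIMPs (TIMP1 and TIMP3) were all lower. The TIMPs called in RT + shHDAC6 against Ctrl (TIMP3 and TIMP4) were lower as well.

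**Figure D1:**
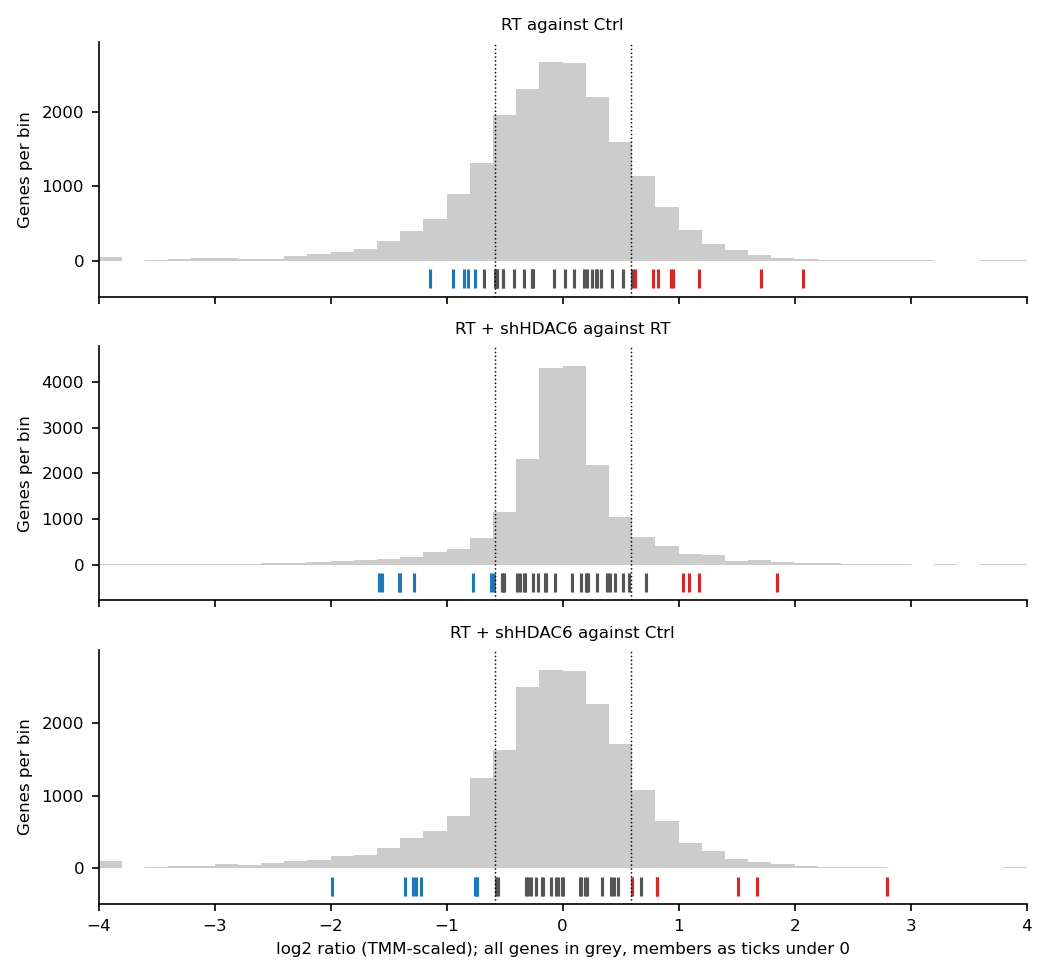
Number of genes (y axis) at each log2 ratio of TMM-scaled counts (x axis) in the 3 comparisons. Grey bars show all tested genes and ticks show the 36 tested genes of the group, red where called higher, blue where called lower and dark grey where not called, with dotted lines at 1.5-fold, and ratios beyond the axis are gathered in its end bars. The ticks lie on both sides of 0 in each comparison, with ADAMTS1 at the far right of the lowest panel at 2.80.

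The scaling bears on the direction of these counts. With library totals in place of TMM, every log2 ratio of RT to Ctrl moved by -0.22, that of RT + shHDAC6 to RT by 0.084 and that of RT + shHDAC6 to Ctrl by -0.13. Among all called genes the share called higher went from 48.5% to 22.4%, from 43.6% to 55.6% and from 45.0% to 29.1%. No called gene of the group changed sign under any of the scalings tried. None could, since each shift was smaller than the 1.5-fold needed for a call. Among values of the group that were not called, 4 changed sign in RT against Ctrl with library totals.

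Levels within the group were compared per kilobase of exon, in scaled CPM. BSG was the highest in all 3 libraries, at 132 in Ctrl, 255 in RT and 231 with RT + shHDAC6. TIMP1 followed at 55.4, 106 and 70.2. Next in Ctrl came ADAM10, TIMP3 and TIMP2, closely spaced at 18.1, 18.0 and 16.9. ADAMTS1 was at 9.60 in Ctrl, 31.5 in RT and 66.9 with RT + shHDAC6, and moved from rank 8 to rank 3 and rank 3. MMP16 was at 5.49, 6.74 and 2.29 and was the highest MMP in Ctrl and RT, whereas in RT + shHDAC6 MMP2 was the highest at 5.24. The secreted collagenase, stromelysin and matrilysin genes were each below 1 in every library.

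**Figure D2:**
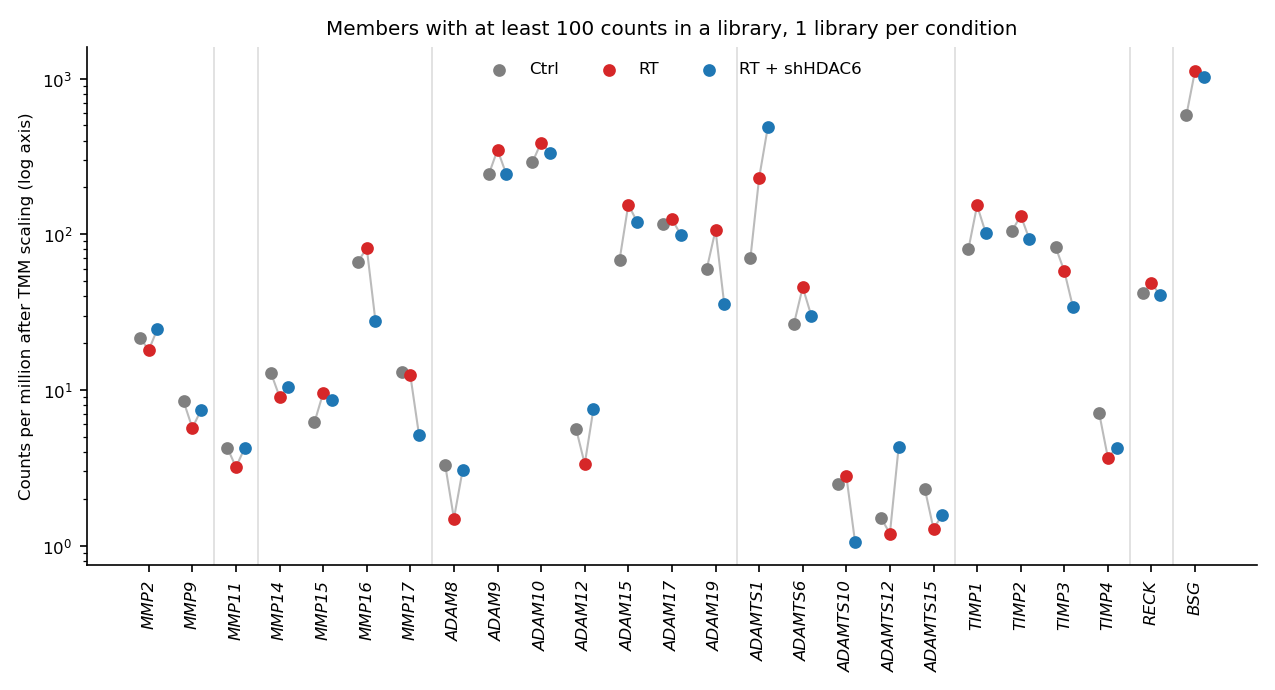
Level in scaled CPM (y axis, log scale) of the 25 genes that reached 100 counts, in Ctrl (grey), RT (red) and RT + shHDAC6 (blue), each point being 1 library. Vertical lines part the subgroups. BSG is the highest point set, ADAMTS1 climbs from left to right from 70.1 to 488 CPM, and MMP16, MMP17, ADAM19 and ADAMTS10 are lowest in RT + shHDAC6.

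Among the secreted MMPs, the gelatinases carried most of the counts. MMP2 (gelatinase A, ENSG00000087245) had 981 counts in Ctrl, 604 in RT and 864 with RT + shHDAC6, with a log2 ratio of -0.26 between RT and Ctrl (interval -0.41 to -0.12) and of 0.45 between RT + shHDAC6 and RT (0.30 to 0.61). MMP9 (gelatinase B, ENSG00000100985) had 382, 191 and 260 counts, with log2 ratios of -0.56 (-0.82 to -0.31) and 0.38 (0.11 to 0.66). For both gelatinases the count was lowest in RT, and neither difference reached a call. MMP9 lay inside the range of the endothelial, leukocyte and plasma cell markers in both ratios, and the part of those cells in its values was not tested. It was called lower in RT with library totals or upper quartile scaling. MMP11 (stromelysin 3), an MMP that is activated inside the cell by furin, had 193, 107 and 148 counts and log2 ratios of -0.42 and 0.41. It was likewise lowest in RT and not called, except in RT against Ctrl with library totals.

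The remaining secreted MMPs were low-count genes. MMP1 (interstitial collagenase) had 62 counts in Ctrl, 26 in RT and 39 with RT + shHDAC6, and was called lower in RT than in Ctrl (log2 ratio -0.82, interval -1.54 to -0.14). This call fell within the marker range, and the part of other cells in it was not tested. MMP13 (collagenase 3) had 14, 7 and 12 counts, MMP3 (stromelysin 1) 17, 19 and 21, and MMP10 (stromelysin 2) 5, 2 and 6. None of these 3 was called in any comparison. MMP7 (matrilysin), a small MMP without the hemopexin domain, had 54, 25 and 25 counts. It was called lower in RT + shHDAC6 than in Ctrl at -0.74 (-1.48 to -0.03), a call that was lost with median-of-ratios scaling. The MMP7 ratio of RT to Ctrl was -0.68 (-1.42 to 0.03). This ratio and that of RT + shHDAC6 to RT lay inside the marker range, and the part of other cells in them was not tested. MMP19 had 58, 51 and 37 counts and MMP28 (epilysin) 5, 2 and 3, without a call.

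MMP1, MMP3, MMP7, MMP10 and MMP13 stand together on the long arm of chromosome 11. The 9 MMP genes of this cluster span 435 kb of GRCh38 (chr11:102520508-102955732). Over the 9 genes, each count was between 0 and 62, and the counts summed to 158 in Ctrl, 79 in RT and 111 with RT + shHDAC6. The cluster thus had few counts in all 3 libraries. For MMP1, MMP7 and MMP13 both ratios lay inside the range of the other-cell markers, whose part in these counts was not tested. For MMP3 and MMP10 they did not both lie inside it. For scale, 3 counts (as many as may go unseen at a count of 0) correspond to 0.0662, 0.0894 and 0.0857 CPM.

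Promoter sequence was searched for 4 short motifs, on both strands, in the 250 bases before the RefSeq start. RefSeq promoters (GRCh38.p14) matched 23 of the 39 genes, with 2 entries each for ADAMTS10 and BSG. The 16 genes without an entry were not searched: MMP1, MMP2, MMP3, MMP9, MMP13, MMP16, MMP17, MMP19, MMP28, ADAM9, ADAMTS1, ADAMTS4, ADAMTS5, ADAMTS9, ADAMTS15 and TIMP2. Of 35116 promoters, 4.20% held the AP-1 element TGAGTCA, 10.7% the TATA box TATAAA, 24.1% the ETS core CAGGAA and 42.6% the GC box GGGCGG. Among the 23 matched genes, MMP7 alone held the AP-1 element. The letters of the TATA box were found in 4 (ADAMTS10, BSG, MMP7 and MMP10), the ETS core in 9 and the GC box in 19. The TATA matches of MMP7 and MMP10 were on the strand of the gene, those of ADAMTS10 and BSG on the other strand. A match is a description of the letters and not evidence of binding. The MMP7 promoter (chr11:102530748-102530997, minus strand) is shown because it held the only AP-1 element among the genes that could be searched. Matches to 3 of the motifs are in capitals: the ETS core, on the other strand, at 168 to 163 bases before the start, the AP-1 element at 67 to 61 and the TATA box at 30 to 25.
MMP7: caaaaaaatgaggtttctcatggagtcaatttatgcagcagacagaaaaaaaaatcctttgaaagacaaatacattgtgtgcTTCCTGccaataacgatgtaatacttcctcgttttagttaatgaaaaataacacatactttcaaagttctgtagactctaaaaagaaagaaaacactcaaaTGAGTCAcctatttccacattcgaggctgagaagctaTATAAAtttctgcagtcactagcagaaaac
With 33.6% G and C, this promoter and that of MMP10 (34.4%) differ in base composition from the promoters of the ADAMs shown with those genes.

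The membrane-type MMPs split by direction. MMP16 (MT3-MMP) had 3017 counts in Ctrl, 2739 in RT and 969 with RT + shHDAC6. It fell in RT + shHDAC6 to 33.9% of RT (log2 ratio -1.56, interval -1.67 to -1.45) and to 41.6% of Ctrl (-1.27, -1.37 to -1.16), whereas RT against Ctrl was 0.30 and not called. MMP17 (MT4-MMP, ENSG00000198598), which is held in the membrane by a glycosylphosphatidylinositol anchor, had 594, 416 and 179 counts. It fell to 41.2% of RT (-1.28, -1.54 to -1.02) and fell against Ctrl as well (-1.36, -1.61 to -1.11), with RT against Ctrl at -0.08. In both genes RT + shHDAC6 was the library that stood apart, and their ratios of RT + shHDAC6 to RT lay below the range of the other-cell markers, fibroblast markers included.

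MMP14 (MT1-MMP, ENSG00000157227), the main activator of pro-MMP2, had 586 counts in Ctrl, 303 in RT and 363 with RT + shHDAC6. RT was at -0.52 relative to Ctrl and RT + shHDAC6 at 0.20 relative to RT, both inside the marker range and neither called, and with library totals RT was called lower. MMP15 (MT2-MMP, ENSG00000102996) had 280, 320 and 301 counts and was called higher in RT at 0.63 (0.39 to 0.86), or 1.55-fold. This call was lost under library totals and under upper quartile scaling. The low-count gene MMP24 (MT5-MMP) had 17, 53 and 42 counts and was called higher than Ctrl in RT (2.08, 1.26 to 2.96) and in RT + shHDAC6 (1.68, 0.83 to 2.58). Of its exon length, 22.1% overlaps exons on the other strand, and since the strand setting of the counting is not given, reads from the 2 strands cannot be told apart there. The same limit holds for parts of other genes, among them MMP9 (18.4%), MMP19 (17.6%), TIMP4 (14.2%) and ADAM17 (11.7%). Summed over the 5 membrane-type MMPs (MMP14, MMP15, MMP16, MMP17 and MMP24), the level per kilobase was 13.1, 14.4 and 8.11.

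**Figure D3:**
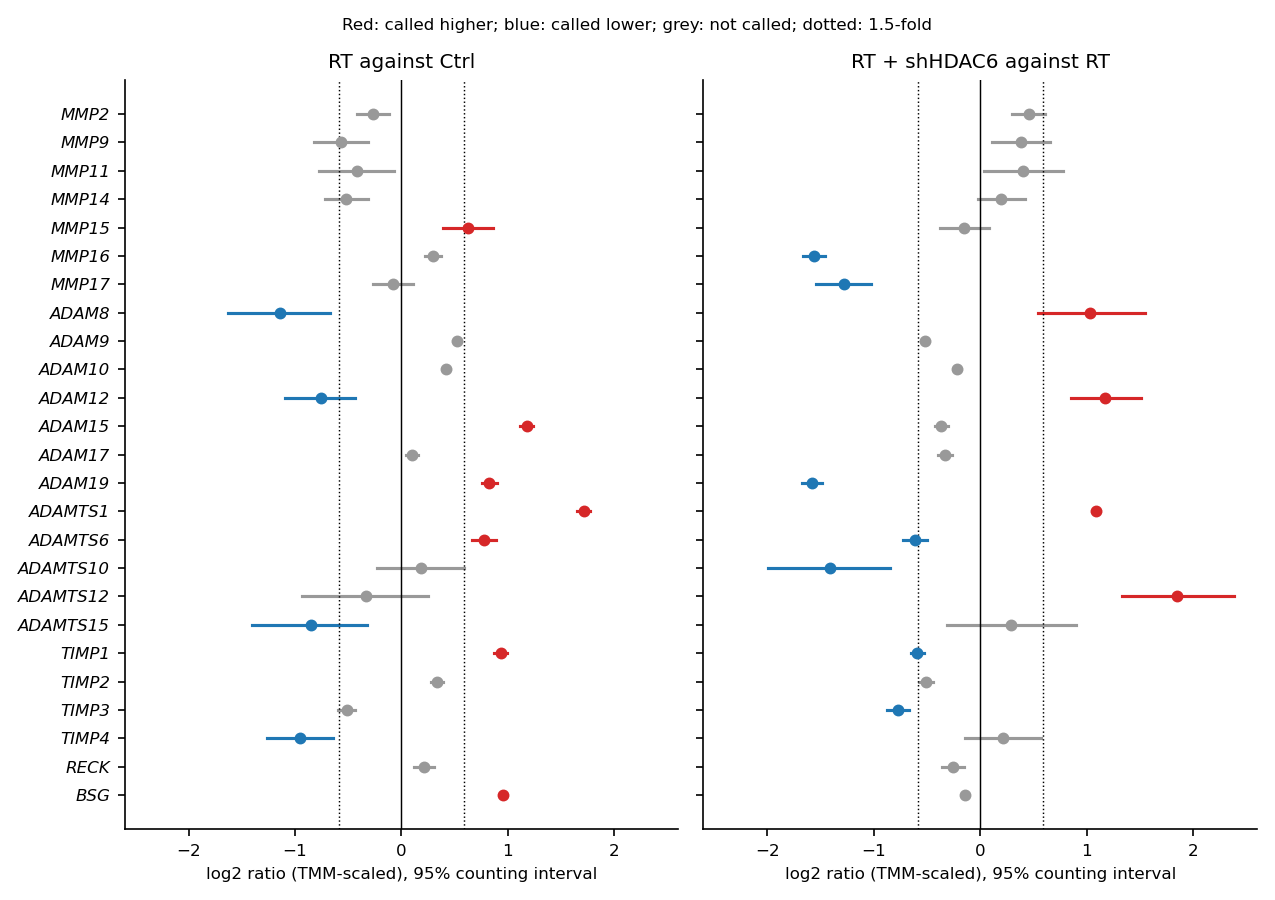
Log2 ratio of TMM-scaled counts (x axis) for the 25 genes that reached 100 counts, RT against Ctrl on the left and RT + shHDAC6 against RT on the right. Bars are 95% counting intervals from 1 library per condition, and dotted lines mark 1.5-fold. ADAMTS1 is at 1.71 and 1.09, ADAM12 at -0.76 and 1.17, and ADAM19 at 0.83 and -1.58.

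The ADAMs held both broadly expressed sheddases and smaller genes. ADAM10 (ENSG00000137845), a sheddase of NOTCH receptors and cadherins, had 13147 counts in Ctrl, 13028 in RT and 11719 with RT + shHDAC6, with a log2 ratio of 0.42 between RT and Ctrl and of -0.21 between RT + shHDAC6 and RT. ADAM17 (ENSG00000151694), which releases TNF and several EGF receptor ligands, had 5307, 4201 and 3486 counts and log2 ratios of 0.10 and -0.33. ADAM9 had 11016, 11696 and 8526 counts, at 0.52 (0.48 to 0.56) and -0.52 (-0.56 to -0.48). These 3 sheddases were measured with narrow counting intervals, and none passed 1.5-fold in any comparison.

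ADAM15 (ENSG00000143537), an ADAM with an integrin-binding RGD motif, had 3113 counts in Ctrl, 5201 in RT and 4217 with RT + shHDAC6. It rose 2.26-fold in RT (log2 ratio 1.18, interval 1.11 to 1.24) and stood 1.75-fold above Ctrl in RT + shHDAC6 (0.81, 0.74 to 0.88). Against RT it was at -0.36 and not called. Both irradiated libraries were thus above Ctrl, with RT the higher.

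The meltrins ADAM12 and ADAM19, known from muscle and heart development, were called in opposite directions. ADAM12 (meltrin alpha, ENSG00000148848, chr10:126012381-126388477, minus strand) had 256 counts in Ctrl, 112 in RT and 264 with RT + shHDAC6. It fell in RT (-0.76, -1.09 to -0.43) and rose 2.26-fold in RT + shHDAC6 against RT (1.17, 0.85 to 1.51), so that RT was the low library. ADAM19 (meltrin beta, ENSG00000135074, chr5:157395534-157575775, minus strand) had 2722, 3569 and 1244 counts. It rose in RT (0.83, 0.75 to 0.90) and fell in RT + shHDAC6 to 33.4% of RT (-1.58, -1.68 to -1.49) and to 59.2% of Ctrl (-0.76, -0.85 to -0.66). The ADAM12 ratio of RT to Ctrl lay inside the marker range, while its ratio of RT + shHDAC6 to RT, with the whole interval, lay above the highest marker at 0.74. Their RefSeq promoters (chr10:126388478-126388727 and chr5:157575776-157576025, minus strand, 73.6% and 76.4% G and C) are shown to set the 2 genes side by side, with matches to the 4 motifs in capitals. ADAM12 held the GC box 3 times, and ADAM19 held none of the 4.
ADAM12: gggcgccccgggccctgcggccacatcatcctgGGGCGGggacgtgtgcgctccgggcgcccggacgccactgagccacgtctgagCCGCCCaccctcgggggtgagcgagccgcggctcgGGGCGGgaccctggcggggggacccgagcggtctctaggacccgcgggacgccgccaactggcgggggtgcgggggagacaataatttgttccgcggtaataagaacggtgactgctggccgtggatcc
ADAM19: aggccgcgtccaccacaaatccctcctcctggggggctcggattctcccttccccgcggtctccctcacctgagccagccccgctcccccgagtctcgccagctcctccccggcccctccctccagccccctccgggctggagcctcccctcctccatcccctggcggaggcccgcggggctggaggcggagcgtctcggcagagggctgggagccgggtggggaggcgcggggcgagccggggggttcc
ADAM8 (ENSG00000151651), an ADAM of leukocytes that is also found in tumour cells, had 149 counts in Ctrl, 50 in RT and 107 with RT + shHDAC6. It was called lower in RT (-1.14, -1.63 to -0.67) and higher in RT + shHDAC6 against RT (1.04, 0.54 to 1.55), again with RT as the low library. Both of its intervals reached the marker range, the leukocyte marker PTPRC had 120, 66 and 57 counts, and the part of other cells in these calls was not tested.

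ADAMTS1 (ENSG00000154734, chr21:26835755-26845409, minus strand), a protease of aggrecan and versican that is also known as an inhibitor of angiogenesis, had the largest called change of the group in RT + shHDAC6 against Ctrl. It had 3181 counts in Ctrl, 7718 in RT and 17096 with RT + shHDAC6. It rose 3.28-fold in RT (log2 ratio 1.71, interval 1.65 to 1.77) and a further 2.12-fold in RT + shHDAC6 (1.09, 1.05 to 1.12), which left it 6.96-fold above Ctrl (2.80, 2.74 to 2.85). Ctrl was thus the lowest library and RT + shHDAC6 the highest. The neighbouring gene ADAMTS5 (aggrecanase 2), 72.5 kb away, had 60, 54 and 63 counts and log2 ratios of 0.28 and 0.16, without a call. Because ADAMTS1 is so abundant, the 11 ADAMTS genes summed to 14.4, 38.4 and 72.0 per kilobase.

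ADAMTS6 (ENSG00000049192) had 1208 counts in Ctrl, 1530 in RT and 1043 with RT + shHDAC6. It rose in RT (0.78, 0.67 to 0.89) and fell in RT + shHDAC6 against RT (-0.61, -0.73 to -0.50), with RT the high library, and both calls were lost with library totals. ADAMTS10 (ENSG00000142303), which binds fibrillin microfibrils, had 112, 94 and 37 counts and fell to 37.7% of RT (-1.41, -2.00 to -0.84) and 42.8% of Ctrl (-1.22, -1.80 to -0.68). ADAMTS12 (ENSG00000151388), a protease of cartilage oligomeric matrix protein, had 68, 40 and 150 counts. It rose 3.59-fold over RT (1.84, 1.33 to 2.39) and 2.86-fold over Ctrl (1.51, 1.09 to 1.95). ADAMTS10 and ADAMTS12 moved in opposite directions in RT + shHDAC6, and neither had more than 150 counts in a library.

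ADAMTS7, the closest relative of ADAMTS12, was a low-count gene with 67 counts in Ctrl, 33 in RT and 13 with RT + shHDAC6. It fell in RT + shHDAC6 against RT (-1.41, -2.46 to -0.44) and against Ctrl (-1.99, -2.97 to -1.12), while RT against Ctrl was -0.59 with an interval that included 0. Its wide intervals, too, reached the range with fibroblast markers, through COL3A1. ADAMTS15 (ENSG00000166106), an aggrecanase, had 105, 43 and 55 counts and was called lower in RT (-0.85, -1.40 to -0.33), inside the marker range in both ratios. The part of other cells in that call was not tested. ADAMTS13, the von Willebrand factor protease, had 72, 54 and 84 counts and was called higher in RT + shHDAC6 than in Ctrl at 0.60 (0.12 to 1.07), which was lost under library totals and under upper quartile scaling. ADAMTS4 (aggrecanase 1) had 39, 24 and 29 counts, ADAMTS9 29, 18 and 15, and ADAMTS17 3, 5 and 2, without a call.

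The 4 inhibitors did not move together. TIMP1 (ENSG00000102265, chrX:47582408-47586789, plus strand), a soluble inhibitor of most MMPs and of ADAM10, had 3633 counts in Ctrl, 5133 in RT and 3555 with RT + shHDAC6. It rose 1.91-fold in RT (interval 1.83 to 1.99 on the fold scale, log2 ratio 0.93) and fell in RT + shHDAC6 to 66.3% of RT (-0.59, -0.65 to -0.53). RT was the high library, and the second call, which is close to 1.5-fold, was lost under library totals and under upper quartile scaling. The TIMP1 promoter (chrX:47582186-47582435, plus strand, 64.8% G and C) is shown as that of the most abundant inhibitor. Capitals mark the ETS core at 88 to 83 bases before the RefSeq start and the GC box, on the other strand, at 135 to 130 and 45 to 40.
TIMP1: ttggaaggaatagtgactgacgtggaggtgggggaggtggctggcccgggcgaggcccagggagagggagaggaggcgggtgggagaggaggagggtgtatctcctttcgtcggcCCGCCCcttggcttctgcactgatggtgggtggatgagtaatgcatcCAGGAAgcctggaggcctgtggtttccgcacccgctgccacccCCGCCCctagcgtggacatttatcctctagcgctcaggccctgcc
TIMP2 (ENSG00000035862), which inhibits MMPs and also takes part in the activation of pro-MMP2 by MMP14, had 4748, 4424 and 3251 counts, with log2 ratios of 0.33 (0.27 to 0.39) and -0.51 (-0.57 to -0.44). Neither reached 1.5-fold.

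TIMP3 (ENSG00000100234), which stays bound to the matrix and inhibits ADAM17 and aggrecanases besides MMPs, had 3755 counts in Ctrl, 1944 in RT and 1187 with RT + shHDAC6. Its ratio of RT to Ctrl was -0.51 (-0.59 to -0.44), short of a call with TMM and past it with library totals. It fell in RT + shHDAC6 to 58.5% of RT (-0.77, -0.88 to -0.67) and to 40.9% of Ctrl (-1.29, -1.38 to -1.19), so that Ctrl was the high library and RT + shHDAC6 the low. Both of its intervals reached the marker range once fibroblast markers were included, through COL3A1 (-0.22 and -0.72) alone. COL1A1, COL1A2, DCN and LUM were at 0.23 to 0.45 in RT + shHDAC6 against RT. The part of other cells in the TIMP3 values was not tested. TIMP4 (ENSG00000157150) had 321, 123 and 149 counts. It was called lower than Ctrl in RT (-0.95, -1.26 to -0.64) and in RT + shHDAC6 (-0.73, -1.02 to -0.45), and both of its ratios lay inside the range of the other-cell markers, whose part in them was not tested. Summed per kilobase, the 4 TIMPs were at 96.2, 143 and 96.1, with TIMP1 the largest share in each library.

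RECK (ENSG00000122707) had 1894 counts in Ctrl, 1623 in RT and 1419 with RT + shHDAC6, and log2 ratios of 0.21 (0.12 to 0.31) and -0.26 (-0.36 to -0.15), without a call. BSG (ENSG00000172270, chr19:571277-583494, plus strand) had 26371, 37772 and 35788 counts. It rose 1.94-fold in RT (0.95, 0.93 to 0.98) and was 1.76-fold above Ctrl in RT + shHDAC6 (0.81, 0.79 to 0.84), with RT + shHDAC6 against RT at -0.14. Both irradiated libraries were above Ctrl, as for ADAM15.

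Genes that act with the group were read from 6 lists. Of 16 tested genes of zymogen activation and trafficking, 3 rose and 2 fell in RT, which is near the 12.2% and 13.0% of all genes. Those that rose were PLAUR (3754, 6488 and 6609 counts, log2 ratio of RT to Ctrl 1.22), the urokinase receptor, PLAU (8514, 13592 and 19110, 1.11), urokinase itself, and PCSK7 (4701, 7560 and 4863, 1.12), a proprotein convertase, while PLAT, tissue plasminogen activator, fell (1773, 829 and 1072, -0.66). Relative to RT, RT + shHDAC6 had 0 higher and 1 lower (PCSK7, -0.70), beside 5.09% and 6.58% of all genes. Relative to Ctrl, 5 rose and 0 fell, beside 11.3% and 13.8%. Of the exon length of PLAU and PCSK7, 31.0% and 20.6% overlaps exons on the other strand.

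Of 13 tested further inhibitors and partners, 7 rose and 1 fell in RT, against the 12.2% and 13.0% of all genes. TFPI2, a Kunitz inhibitor of plasmin, had 2802, 6309 and 5042 counts (1.61), and SLC16A1, a lactate transporter chaperoned by BSG, had 13517, 23028 and 17759 (1.20). CD151, a tetraspanin, was at 1.15 and CD44, a hyaluronan receptor that docks MMP9, at 1.04. Between RT + shHDAC6 and RT, 0 rose and 1 fell (CAV1, -0.64), beside 5.09% and 6.58% of all genes. Against Ctrl 5 rose and 1 fell, beside 11.3% and 13.8%.

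Of 26 tested shed substrates of ADAM10 and ADAM17, 14 rose and 3 fell in RT, beside the 12.2% and 13.0% of all genes, while 3 rose and 8 fell in RT + shHDAC6 against RT, beside 5.09% and 6.58%. The share that fell in RT was near that of all genes. The substrates that rose in RT included NRG1 (346, 702 and 487 counts, 1.46), an ERBB ligand, and SDC1 (4216, 6889 and 4334, 1.14), a heparan sulphate proteoglycan. MET, the receptor of hepatocyte growth factor, had 7752, 11340 and 4872 counts, at 0.98 in RT against Ctrl and -1.28 in RT + shHDAC6 against RT. NOTCH1 had 293, 310 and 1005 counts and rose in RT + shHDAC6 against RT at 1.63, whereas CDH2 (N-cadherin) fell at -1.04. ADAM10 and ADAM17 themselves were called in no comparison. In RT + shHDAC6 against Ctrl, 8 rose and 2 fell, beside 11.3% and 13.8% of all genes. CD44 is a member of both this list and the previous one.

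Of 21 tested matrix substrates, 3 rose and 6 fell in RT, beside 12.2% and 13.0% of all genes, so that the share that rose was near the background. In RT + shHDAC6 against RT, 3 rose and 4 fell, beside 5.09% and 6.58%. LAMB3, a chain of laminin 332, had 16996, 31321 and 29107 counts (1.32 in RT). VCAN (versican), a substrate of ADAMTS1, had 2402, 2431 and 657 counts and fell at -1.95 in RT + shHDAC6 against RT, as did the basement membrane genes NID1 (-1.14) and HSPG2 (-0.87). Against Ctrl, RT + shHDAC6 had 2 higher and 2 lower, beside 11.3% and 13.8% of all genes. COL1A1, COL1A2, COL3A1 and DCN, which are 4 of the 5 fibroblast markers, are also genes of this list, and the part of fibroblast RNA in its counts was not tested. Of the 7 AP-1 subunit genes, 1 rose and 2 fell in RT, beside 12.2% and 13.0% of all genes. FOSL1 rose (4843, 10288 and 13416 counts, 1.52), and JUND (-1.07) and FOS (-0.70) fell. In RT + shHDAC6 against RT, FOSB (1.24), JUNB (0.68) and FOS (0.64) rose, which made 3, and 0 fell, beside 5.09% and 6.58%. Against Ctrl, 2 rose and 1 fell, beside 11.3% and 13.8%.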

How the data were processed

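RNA-seq of T24 cells was measured in 3 libraries, and groups were taken from the treatment labels. In the authors' pipeline, cutadapt trimmed the reads, STAR mapped them to GRCh38 and featureCounts assigned them to genes of GENCODE release 28. The deposited values are whole-number read counts per gene without normalisation. The submitters' processing notes give STAR 2.6.1a, which differs from the version in the study's methods, and the library kit differs between the labels and the methods. Strand setting and the treatment of multi-mapping reads are not given in the sources used here, so paralogs and overlapping genes may share counts.

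Symbols and positions came from GENCODE release 44, in which 57799 of 58381 identifiers matched. TMM factors (edgeR 4.0.16, R 4.3.3) were computed over the 3 libraries. Ratios used 0.5 in place of a count of 0 and had 95% Clopper-Pearson intervals (scipy 1.17.1, Python 3.11.15). Calls needed 10 counts in the higher library, 1.5-fold and an interval excluding 0. This fold rule stands in for the NOISeq probability of the study's methods. Count models could not be fitted with 1 library per group, and no p-value was computed. The scripts were tested on simulated data. Exon length was the union of a gene's exons.

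Every member of the group was named, with ratios for those that reached 100 counts or had a call, and of each other list at most the 4 largest calls that reached 100 counts. The members, the lists and the markers were chosen with earlier results of these data known, and the plasma cell markers and the wider marker range after the values had been seen. Promoters came from RefSeq (GRCh38.p14), and 16 genes had no entry. Alternatives were library totals, upper quartile and median-of-ratios (DESeq2 1.42.0) scaling, 1 count for zeros, no count minimum or 100 counts, 2-fold, and no interval. No column of sample values was left unused.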

Additional observations from a re-analysis of the deposited data

How the results depend on the processing

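No paired analysis was possible because each condition had 1 library and the labels give no replicate numbers, and for the same reason leaving out a replicate was not run. No called value changed sign under the 3 other scalings or with 1 count for zeros, the settings under which each gene was recomputed. Neither could change one, so this is no check of the calls. The scaling shifts were smaller than 1.5-fold, and no gene of the group was at 0 in any library. The median log2 ratio of the group ran from -0.16 (library totals) to 0.20 (minimum of 100 counts) in RT against Ctrl, from -0.21 to -0.061 in RT + shHDAC6 against RT and from -0.18 to 3.70e-05 in RT + shHDAC6 against Ctrl.

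For RT against Ctrl, library totals gave 11 genes of the group lower, with 1340 higher and 4646 lower among all genes. MMP7, MMP9, MMP11, MMP14, ADAMTS7 and TIMP3 were gained, and MMP15 and ADAMTS6 lost. Upper quartile scaling gave 8 lower, with MMP7, MMP9 and ADAMTS7 gained and MMP15 lost. A 2-fold rule left 3 higher and 1 lower in the group and 842 and 1246 among all genes, a minimum of 100 counts left 1279 lower, and without the interval rule 4156 were lower.

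For RT + shHDAC6 against RT, a 2-fold rule left 5 lower in the group, and 519 higher and 701 lower among all genes. A minimum of 100 counts left 362 higher and 638 lower, and without the interval rule 1917 were higher and 1888 lower. Library totals lost ADAMTS6 and TIMP1 and gained ADAMTS13, and upper quartile scaling lost TIMP1 and gained ADAMTS13.

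For RT + shHDAC6 against Ctrl, a 2-fold rule left 3 higher and 5 lower in the group, and 865 higher and 1613 lower among all genes. A minimum of 100 counts left 1490 lower. Library totals and upper quartile scaling lost ADAMTS13 and gained ADAMTS15, and median-of-ratios scaling lost MMP7. By construction, another scaling moves all ratios of a comparison by 1 constant, a count minimum changes the genes tested, and the fold and interval rules change what counts as a call. Depth limits the 14 genes with 2 to 84 counts, whose intervals are wide.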

Other observations

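Of 29 further MMP, ADAM and ADAMTS genes outside the group, 14 passed the count minimum in each comparison. In RT against Ctrl, 1 rose and 0 fell, beside 12.2% and 13.0% of all genes. In RT + shHDAC6 against RT, 0 rose and 4 fell, beside 5.09% and 6.58%. ADAMTS3, a procollagen N-proteinase, had 169 counts in Ctrl, 108 in RT and 26 with RT + shHDAC6, and fell against RT (log2 ratio -2.12, counting interval -2.79 to -1.49). ADAM23, a brain-enriched ADAM without protease activity, had 1188, 1138 and 373 counts and fell (-1.67, -1.84 to -1.50). ADAMTS18 (450, 456 and 287 counts, -0.73) and ADAM22 (1940, 2045 and 1334, -0.68), another ADAM without protease activity, fell as well. In RT + shHDAC6 against Ctrl, 2 rose and 6 fell, beside 11.3% and 13.8% of all genes. ADAMTS20 (273, 158 and 114 counts, -0.89) was among those that fell, and ADAM11 rose at 0.82 with 207, 233 and 282 counts.

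The keratin gene KRT7 had 3533 counts in Ctrl, 3854 in RT and 597 with RT + shHDAC6 (log2 ratio to RT -2.75), while KRT18 had 7336, 8362 and 9048. KRT7 was picked out after its values were seen. The urothelial transcription factor genes GATA3 (2320, 1423 and 709 counts) and PPARG (1298, 650 and 352) were lowest in RT + shHDAC6. The urothelial marker KRT5 (478, 257 and 345 counts) was lowest in RT instead.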
